A study of Homo sapiens with 20 samples.

Results

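Interferon-stimulated genes are the genes that a cell switches on when interferon binds to its receptor. A list of 46 of them was read from RNA-seq of HT29 and SW480, both established colorectal cancer cell lines of epithelial origin. HT29 carries a focal amplification of 13q12.2 and SW480 a gain of the whole chromosome 13, and POLR1D, the gene that was silenced, lies in 13q12.2. The members were chosen as the rows that carry these gene symbols in the table of every library, and they make up 46 of the 36346 gene names listed. All 46 symbols were found, with RIG-I under its older symbol DDX58, and rows that share a symbol were summed, which concerned IRF7, IRF9 and IFI27 with 2 rows each.

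Cells in suspension received a non-targeting scrambled siRNA, abbreviated SCR, or an siRNA against POLR1D, either siPOLR1D2 or siPOLR1D3, and RNA was taken 72 h later. All libraries therefore come from transfected cells, and no untransfected or interferon-treated library is part of the series. HT29 has 4 SCR, 2 siPOLR1D2 and 2 siPOLR1D3 libraries, and SW480 has 6 SCR, 3 siPOLR1D2 and 3 siPOLR1D3 libraries, 20 in all. The labels number the replicates without saying whether they are separate cultures, so the p values measure only the spread between these libraries, which may be technical. Values are normalized read counts, scaled within each cell line, so that levels are compared between libraries of a line and never between the lines. A gene was tested in a line when its value was 10 or more in at least 4 of that line's libraries. By this filter 45 members were tested in HT29 (CXCL11 was not), 36 in SW480, and 36 in both lines. The 10 members not tested in SW480 are DHX58, OASL, RSAD2, CMPK2, SAMD9L, TRIM22, CXCL10, CXCL11, IFI44 and IFI44L, and none of them was above 17.32 in any SW480 library.

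Type I and type III interferons activate the kinases JAK1 and TYK2, which phosphorylate STAT proteins such as STAT2. With IRF9, STAT2 is part of the factor ISGF3, which binds the interferon-stimulated response element (ISRE) in the promoters of its targets, whereas interferon gamma acts on the gamma-activated site (GAS). Cells make type I and type III interferon after sensors such as RIG-I, encoded by DDX58, and MDA5, encoded by IFIH1, have bound double-stranded RNA, and most sensors are themselves induced by interferon. In the gut epithelium the same genes form the antiviral defence of the lining.

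The promoters show the element that most of these genes share, and a few are printed because the genes turn up again below. RefSeq promoter windows on GRCh38.p14, from 250 bases before to 50 bases after a start site, were at hand for 37 members. The letters GAAANNGAAA, the core of the ISRE, were searched on both strands and stood in a window of 26 of the 37 (70.3%), against 4.38% of 27305 genes with a window. With CT behind the core (GAAANNGAAACT), which is contained in the first search, the counts were 16 of 37 (43.2%) and 0.322%. The palindromic core of the GAS, TTCNNNGAA, was found in 13 of 37 (35.1%) and in 9.38% of all genes. A match is a description of letters and not a bound site. The capitals below mark the ISRE core, or its reverse complement where they start with TTTC, with 10 flanking bases to each side, all written 5′ to 3′ on the strand of the gene.
ISG15, chr1:1013380-1013409, + strand, 107 bases before the start: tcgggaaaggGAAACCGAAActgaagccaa
IFI44L, chr1:78620365-78620394, + strand, 73 bases before the start: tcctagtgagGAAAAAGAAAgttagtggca
IFITM1, chr11:313990-314019, + strand, 40 bases before the start: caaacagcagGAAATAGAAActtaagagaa
EPSTI1, chr13:42992272-42992301, - strand, 50 bases before the start: ctgattctgaGAAACCGAAActcagctgtt
IFIT1, chr10:89392497-89392526, + strand, 116 bases before the start: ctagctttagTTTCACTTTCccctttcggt
RSAD2, chr2:6877622-6877651, + strand, 145 bases before the start: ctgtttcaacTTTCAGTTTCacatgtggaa
SAMD9, chr7:93118096-93118125, - strand, 136 bases before the start: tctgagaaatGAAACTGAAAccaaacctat
DDX60, chr4:168318786-168318815, - strand, 53 bases before the start: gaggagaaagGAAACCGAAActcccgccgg
DTX3L, chr3:122564322-122564351, + strand, 6 bases before the start: ccagggaagcGAAACTGAAActttgcgccc
PARP9, chr3:122564322-122564351, - strand, 41 bases before the start: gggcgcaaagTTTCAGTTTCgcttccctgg
The last pair is the same stretch of DNA read from either strand, since DTX3L and PARP9 are transcribed away from each other. No window of STAT2, IRF1, IRF9, IFI35, OAS1 or DDX58 held the core.

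Several members are neighbours in the genome (GENCODE release 29, GRCh38). The IFIT genes lie together on chromosome 10, with IFIT2 from 89283694 to 89309276, IFIT3 from 89327894 to 89340971, IFIT1 from 89392546 to 89406486 and IFIT5 from 89414586 to 89421001. The OAS genes OAS1, OAS3 and OAS2 follow each other on chromosome 12 between 112906777 and 113011723. Other neighbours are IFI44L and IFI44, HERC6 and HERC5, SAMD9 and SAMD9L, MX2 and MX1, CXCL10 and CXCL11, RSAD2 and CMPK2, and the IFITM genes on chromosome 11. Similar genes share sequence, and the deposited counts could divide their reads between them. Of the stretches of 31 bases in its annotated transcripts, IFITM1 shared 35.3%, IFITM2 45.2% and IFITM3 56% with other genes. For USP18 the share was 30.8%, mostly with USP41, for XAF1 36.6% with PRAL, for IRF9 50.3%, mostly with AL136295.5, and for IRF1 28.5%, mostly with C5orf56. GBP1 shared 18.4% and TRIM22 17.2%. Values of these members are less certain for it, by an amount that these shares do not give and that was not tested.

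POLR1D was at 4433 to 6036 in the HT29 SCR libraries and at 2550 to 3492 in the silenced ones (exact permutation test, 2-sided, p = 0.0286, the smallest that 4 libraries against 4 allow). In SW480 it was at 1829 to 2599 in SCR and 843 to 1336 in silenced cells (exact permutation test, 2-sided, p = 0.00216, the smallest that 6 against 6 allow). Summed values per library were 17620000 to 22960000. The number of reads behind them is not known, so no counting interval is given. EPCAM and KRT8, markers of epithelium, were at 17160 and 44140 or more in every library, while the leukocyte markers PTPRC and CD3E stayed at or below 21.23 and 4.68 and LYZ was at 22200 to 32380 in HT29. CDX2, a transcription factor of intestinal epithelium, did not exceed 7.91 in HT29. Of the other epithelial markers in SW480, KRT18 was at 67540 or more, VIL1 at 1476 to 5663 and CDH1 at 648 to 2120. CDX2 was at 45.5 to 224.5 there, while KRT20 and CEACAM5 did not exceed 94.6 and 22.5. Of the fibroblast and endothelial markers in SW480, COL1A1 reached 699.9 and VWF 130.1, and the others did not exceed 41.46. On the first principal component of HT29, with 44.3% of the variance, SCR replicate 1 stood apart at a score of -0.767, with the other 7 libraries between -0.152 and 0.175. In SW480 the first component, with 40.7% of the variance, had SCR replicates 1, 2 and 3 and siPOLR1D2 replicates 1 and 2 below 0 and the other 7 libraries above 0. Libraries that differ in a bulk measurement may differ in how many cells make a transcript or in how much each cell makes, and these cannot be told apart.

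The HT29 control libraries differed widely from each other. For the 45 members tested, the median standard deviation of log2 values over the 4 SCR libraries was 1.39, against 0.318 for all 13274 genes tested. The median ratio of the highest to the lowest SCR library, with 1 added to each value, was 9.05 for the members and 1.63 for all genes. SCR replicates 3 and 4 were both above replicates 1 and 2 for 40 of the 45, against 26.6% of all genes. SCR replicate 4 was the highest of all 8 HT29 libraries for 41 of the 45, against 13.9% of all genes, and SCR replicate 2 was the lowest SCR library for 43, against 19.2%. In SW480 the same standard deviation over 6 SCR libraries was 0.48 for the 36 members tested and 0.344 for all 15651 genes tested.

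**Figure D1:**
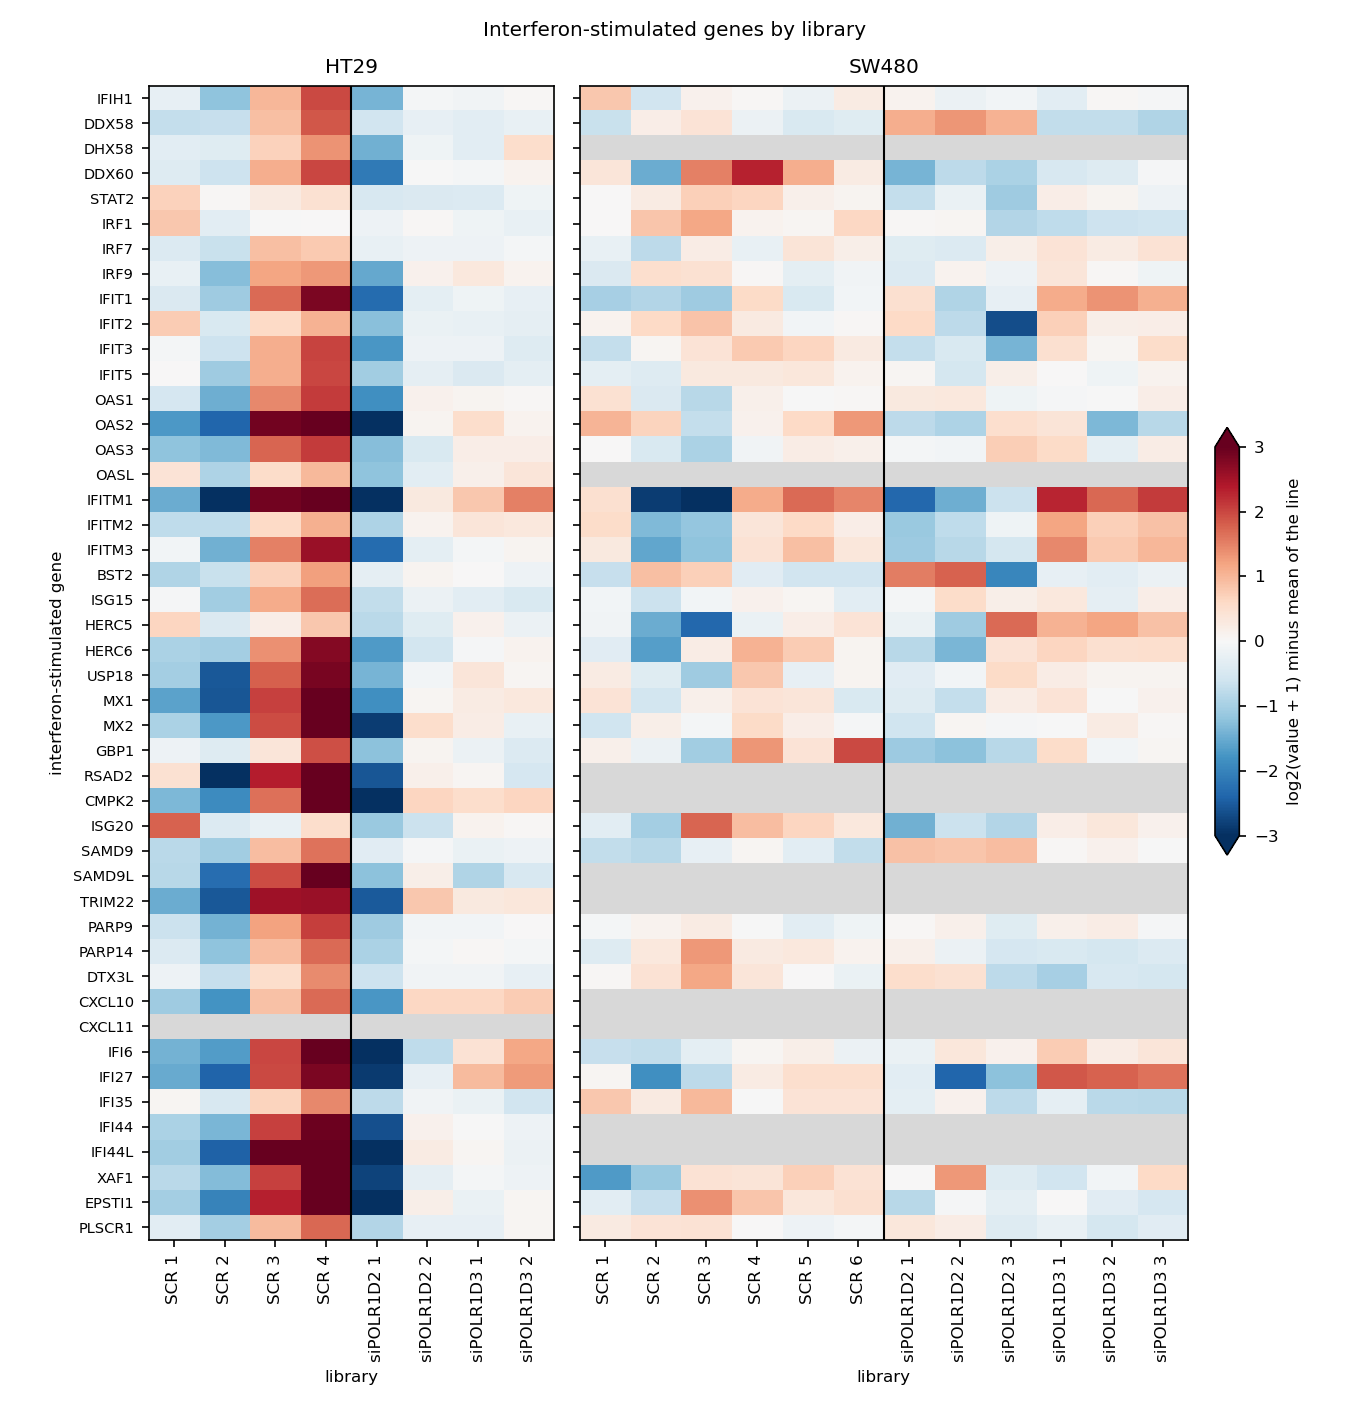
Each column is a library and each line of cells an interferon-stimulated gene, coloured by its log2(normalized read count + 1) minus the mean of that gene over the libraries of the cell line; the black line divides SCR from silenced libraries and grey marks genes not tested in the line. In HT29 SCR replicates 3 and 4 are red for nearly every gene and SCR replicate 2 and siPOLR1D2 replicate 1 are blue. In SW480 every library holds genes above and genes below their mean, with the most above it, 29 of 36, in SCR replicate 4.

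The median deviation of the 45 members from their HT29 mean was -0.49, -1.20, 1.12 and 2.01 on the log2 scale in SCR replicates 1 to 4. It was -1.40 and -0.088 in siPOLR1D2 replicates 1 and 2, and -0.035 and 0.014 in the siPOLR1D3 libraries. Members above their mean numbered 45 in SCR replicate 4 and 43 in SCR replicate 3, but 9 in SCR replicate 1, 1 in SCR replicate 2 and 0 in siPOLR1D2 replicate 1. The latter was the lowest of the 8 libraries for 27 members, against 15.5% of all genes, and SCR replicate 2 for 16, against 10.5%. The remaining 3 silenced libraries thus lay between the high and the low controls.

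The members that spread most over the HT29 controls were IFITM1, OAS2, IFI44L, MX1, RSAD2 and EPSTI1. IFITM1, a membrane protein that keeps viruses from fusing with the cell, was at 8.32, 1.08, 193 and 506 in SCR replicates 1 to 4, at 0 and 31 in the siPOLR1D2 libraries and at 44.8 and 73.3 in the siPOLR1D3 libraries. OAS2, which makes the oligoadenylates that activate RNase L, was at 33.1, 20.7, 836 and 2272 in SCR, at 7.17 and 118 with siPOLR1D2 and at 161 and 121 with siPOLR1D3. In both genes the silenced libraries other than siPOLR1D2 replicate 1 lay between SCR replicates 1 and 3. IFI44L, an interferon-induced gene used widely as a marker of interferon exposure, was at 30.9, 11.3, 528 and 1603 in SCR, at 2.52 and 77.1 with siPOLR1D2 and at 67.4 and 57.2 with siPOLR1D3. MX1, a dynamin-like GTPase that traps viral nucleocapsids, was at 112, 56.5, 1416 and 3525 in SCR, at 94.8 and 355 with siPOLR1D2 and at 404 and 423 with siPOLR1D3. These repeat the order, with SCR replicate 4 above SCR replicate 3 and both far above every other library. RSAD2, which encodes viperin, was at 36.1, 2.41, 138 and 226 in SCR, at 3.59 and 28.98 with siPOLR1D2 and at 27.3 and 18.3 with siPOLR1D3. EPSTI1 was at 20.5, 9.75, 217 and 544 in SCR, at 4.45 and 48.4 with siPOLR1D2 and at 36.8 and 44.1 with siPOLR1D3.

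**Figure D2:**
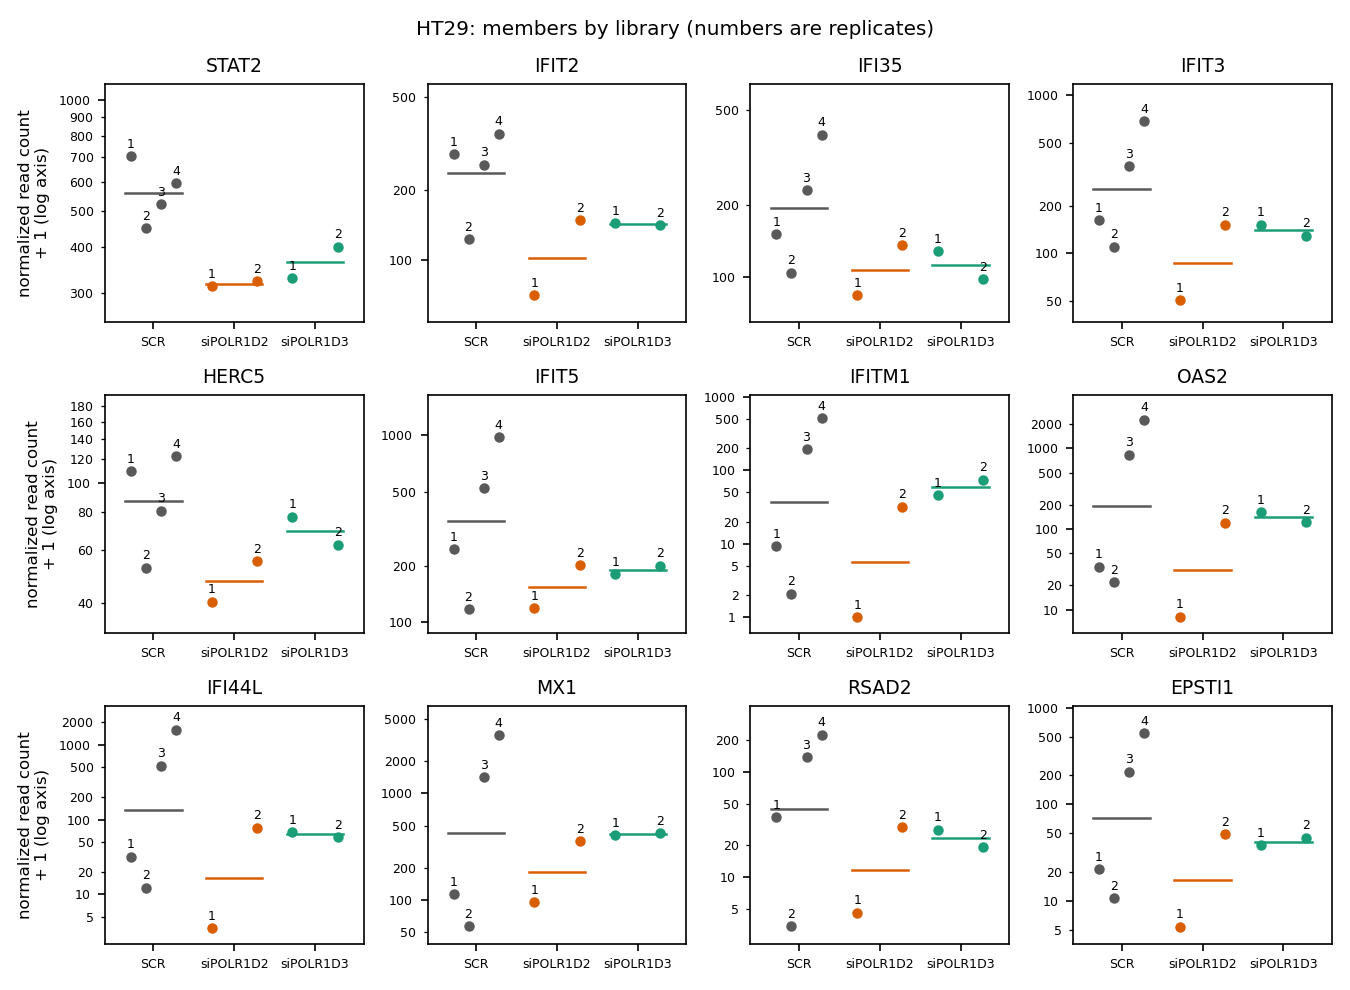
Normalized read count + 1 on a log axis for the HT29 libraries, in SCR (grey), siPOLR1D2 (orange) and siPOLR1D3 (green), with the replicate number beside each point and a line at the mean of the log values. For OAS2, IFI44L, MX1 and EPSTI1 the SCR replicates 3 and 4 lie above all other libraries and SCR replicates 1 and 2 below most silenced ones, while for STAT2 the 4 silenced libraries lie below the 4 SCR libraries.

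By role, the ratio of SCR replicate 4 to SCR replicate 2 had its highest median in a mixed group of GTPases and other antiviral effectors. The other antiviral groups had lower medians, at 11.3 for the OAS family, 10.1 for the IFITM genes with BST2 and 7.32 for the IFIT family. The GTPases MX1, MX2 and GBP1, with RSAD2, CMPK2, the exonuclease ISG20, SAMD9, SAMD9L and TRIM22, were 1.95 to 93.9 times higher in SCR replicate 4 than in SCR replicate 2, with a median of 35.5. Among IFI6, IFI27, IFI35, IFI44, IFI44L, the apoptosis factor XAF1, EPSTI1 and the scramblase PLSCR1 the ratio was 3.82 to 142, with a median of 31.8. IFI27, a mitochondrial protein, was at 216, 115, 2434 and 4336 in SCR and at 83.6 to 1481 in silenced libraries. IFI6, which protects the endoplasmic reticulum from flaviviruses, was at 37.5, 31.3, 412 and 1267 in SCR and at 8.86 to 227 in silenced libraries. For both, siPOLR1D3 lay above siPOLR1D2. The OAS family (OAS1, OAS2, OAS3 and the catalytically inactive OASL) had ratios of 3.73 to 110. Among IFITM1, IFITM2, IFITM3 and BST2, the tetherin that holds budding virions at the membrane, they ran from 3.54 to 470.

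The ISG15 system showed a median ratio of 10.2. ISG15, a ubiquitin-like modifier, was at 244, 121, 547 and 806 in SCR and at 151 to 221 in silenced libraries. USP18, which removes ISG15 and dampens receptor signalling, was at 52.2, 17.4, 368 and 766 in SCR and at 39.8 to 137 in silenced libraries. The ligases HERC5 and HERC6 had ratios of 2.37 and 13.8. The IFIT proteins, which bind foreign RNA ends, had ratios of 2.86 to 14.9, led by IFIT1 at 215, 138, 947 and 2061 in SCR and 57.8 to 265 in silenced libraries. PARP9, PARP14 and DTX3L, an ADP-ribosylation group, had ratios of 4.30 to 11.3, and PARP14 was at 3968, 2299, 10100 and 17100 in SCR. The double-stranded RNA sensors IFIH1, DDX58, DHX58 and DDX60 had ratios of 3.40 to 9.08. The transcription factors had the lowest median of these groups, 2.05, with 1.25 for IRF1, 1.33 for STAT2, 2.76 for IRF7 and 6.02 for IRF9. The chemokine CXCL10, a T cell attractant, was at 4.48, 2.32, 20.1 and 35.9 in SCR and 2.44 to 18.3 in silenced libraries. CXCL11, which passed no filter, was at 1.40 to 19.4 in HT29.

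Against all 4 SCR libraries, no member passed the test in silenced HT29 cells, and neither did the silenced gene itself, with a log2 fold change of -0.72 and an adjusted p of 0.355 from limma for POLR1D. A member that misses the threshold here is thus not shown to be unchanged. limma's moderated test on log2(normalized read count + 1), with Benjamini-Hochberg adjusted p values over the whole table, called 0 of 45 members and 0 of 13274 genes (0%) at an adjusted p under 0.05, and the smallest adjusted p of a member was 0.355. At an unadjusted p under 0.05, 2 members were lower (STAT2 and IFIT2, against 6.05% of all genes) and 0 were higher (4.66% of all genes). The median log2 fold change of the 45 was -0.78, against 0.00019 for all genes, and 44 were below 0, with standard errors from 0.161 to 1.85. STAT2, the ISGF3 subunit, was at 703, 448, 520 and 594 in SCR, 312 and 321 with siPOLR1D2, and 328 and 399 with siPOLR1D3. It was the only member with each silenced library below each SCR library, a share of the 45 that is not above the 4.17% of all genes. For STAT2 limma gave a log2 difference of -0.72 between silenced and SCR libraries with SE 0.16 and an adjusted p of 0.355.

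The other members with the smallest unadjusted p overlapped between the groups. IFIT2 was at 284, 122, 256 and 349 in SCR, 69.4 and 147 with siPOLR1D2, and 143 and 140 with siPOLR1D3 (log2 fold change -0.97, SE 0.35). IFIT3 was at 161, 109, 354 and 680 in SCR, 49.5 and 151 with siPOLR1D2, and 151 and 128 with siPOLR1D3 (log2 fold change -1.21, SE 0.57). In both genes SCR replicate 2 lay below 3 of the 4 silenced libraries. IFIT5 was at 244, 116, 520 and 978 in SCR, 118 and 202 with siPOLR1D2, and 180 and 200 with siPOLR1D3 (log2 fold change -1.02, SE 0.55). IFI35, a partner of NMI, was at 151, 103, 230 and 394 in SCR, 83.1 and 135 with siPOLR1D2, and 127 and 97.3 with siPOLR1D3 (log2 fold change -0.83, SE 0.37). HERC5 was at 109, 51.4, 80.0 and 122 in SCR, 39.4 and 54.1 with siPOLR1D2, and 76.3 and 61.6 with siPOLR1D3 (log2 fold change -0.60, SE 0.31). The adjusted p of these 5 lay between 0.430 and 0.523 from limma.

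The median direction of the list in HT29 turned with the choice of controls. Either pair was left out with the spread of the HT29 controls known. SCR replicates 3 and 4 were both above replicates 1 and 2 for 40 of the 45 members, so the direction follows largely from the pair kept. Without SCR replicates 1 and 2, limma again called 0 of 45 members at an adjusted p under 0.05 (0% of all genes), with 0.0808 as the smallest adjusted p of a member. At an unadjusted p under 0.05, 42 were lower (6.93% of all genes) and 0 higher (4.73%), the exceptions being IRF1, ISG20 and CXCL10. Each silenced library was below SCR replicates 3 and 4 for 43 of the 45, against 12.7% of all genes. The median log2 fold change was -2.05, and 45 of 45 were below 0. Estimates were -4.83 for IFI44L, -4.38 for OAS2, -3.01 for MX1, -1.82 for ISG15 and -1.47 for SAMD9. Without SCR replicates 3 and 4, a choice made after the values had been seen, the median was 0.50 and 34 of 45 were above 0. SAMD9, a restriction factor of poxviruses, and BST2 were then higher in silenced cells, with log2 fold changes of 0.75 (SE 0.13, adjusted p = 0.0247 from limma) and 0.70 (SE 0.16, adjusted p = 0.0443 from limma), against 5.76% of all genes called. These 2 are 4.44% of the members, a share not above that of all genes. At an unadjusted p under 0.05, DDX58, MX1, OAS3, USP18, SAMD9 and BST2 were higher (13.4% of all genes) and STAT2 lower (14.1%). STAT2 had about the same estimate under each choice, at -0.72 with all controls, -0.72 with SCR replicates 3 and 4 and -0.73 with SCR replicates 1 and 2. For 34 members the estimate was below 0 against one pair of controls and above 0 against the other. The remaining 11, STAT2 among them, were below 0 against either pair.

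**Figure D3:**
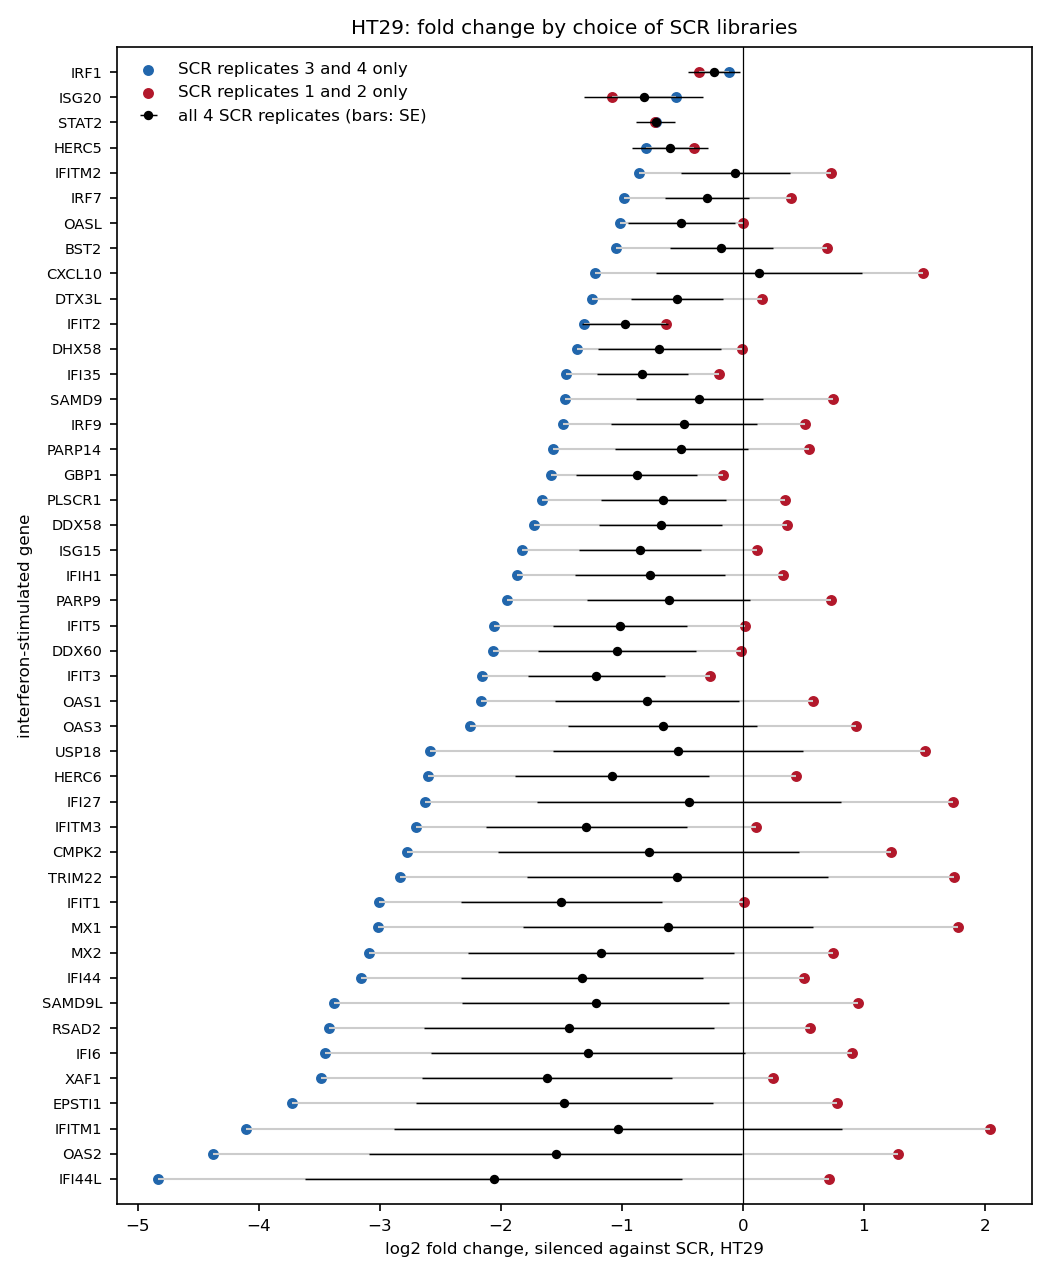
log2 fold change of silenced against SCR HT29 cells for the 45 members tested, ordered by the estimate against SCR replicates 3 and 4 (blue), with the estimate against all 4 SCR libraries and its SE (black) and against SCR replicates 1 and 2 (red). All blue points lie below 0, 34 red points lie above 0, and for STAT2 the 3 points nearly coincide.

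A further gene of the pathway varied across the HT29 controls in the order of the members. EIF2AK2, which encodes the RNA-activated kinase PKR, was at 976, 849, 2521 and 3981 in SCR, 961 and 1405 with siPOLR1D2, and 1207 and 1365 with siPOLR1D3. It was not called against all controls, with a log2 fold change of -0.48 (adjusted p = 0.684 from limma). IFNE and IFNA1 did not show this order. IFNE, the epithelial type I interferon, was at 164, 357, 207 and 307 in SCR and 162 to 257 in silenced libraries, and IFNA1 was at 34.4, 75.5, 45.4 and 58.2 in SCR and 15.8 to 44.6 in silenced libraries. The other 19 of 21 interferon genes, IFNB1, IFNG and the IFNL genes among them, did not exceed 11.35 in any library of either line. Of these, IFNL2 was at 0, 0, 2.62 and 5.38 in SCR and 0 to 0.794 in silenced HT29 libraries. In HT29, 0 of 13 receptor and JAK-STAT genes, 0 of 18 sensors and adaptors and 0 of 11 NF-kB targets tested were called by limma, with 2, 1 and 0 lower and 0, 0 and 1 higher at an unadjusted p under 0.05.

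A list of 10 targets of the stress factor ATF4 went the other way between the pairs of HT29 controls, SCR replicates 1 and 2 against SCR replicates 3 and 4. Their median deviation from the HT29 mean was 2.00, 1.73, -0.58 and 0.35 on the log2 scale in SCR replicates 1 to 4 and between -1.04 and -0.82 in the silenced libraries. Against all 4 SCR libraries limma called 0 of the 10 at an adjusted p under 0.05. At an unadjusted p under 0.05, 10 were lower in silenced HT29 cells, against 6.05% of all genes. DDIT3, which encodes the stress factor CHOP, was at 2061, 1175, 102 and 231 in SCR and at 77.3 to 94.1 in silenced libraries. The pair of controls with low values of interferon-stimulated genes was thus the one with high values of this list. Within a pair the lists went the same way, with replicate 1 above replicate 2 and replicate 4 above replicate 3 in the median of either list. The part of either list in the other was not tested. The number of table rows with a value above 0 was lowest in SCR replicate 1, at 18706, and 20138, 20825 and 20796 in SCR replicates 2, 3 and 4.

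In SW480, 1 member rose and 2 fell in silenced cells. SAMD9 was higher, against 2.35% of all genes, and IRF1 and IFI35 were lower, against 4.06% of all genes (limma, adjusted p under 0.05, 36 members tested). The median log2 fold change of the 36 was -0.054, against 0.018 for all genes, and 19 were below 0. At an unadjusted p under 0.05, IFIT1, IFI6, HERC5 and SAMD9 were higher (10.3% of all genes) and IFI35, DDX60, OAS2, STAT2, IRF1 and PARP14 lower (12.4%). No member had each silenced library below (2.79% of all genes) or above (1.67%) each SCR library. The shares called among the members are thus near those of all genes.

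SAMD9 had a lowest, median and highest value of 332, 416 and 614 in SCR, with 1093, 1050 and 1120 in the siPOLR1D2 libraries and 604, 646 and 583 in the siPOLR1D3 libraries. The siPOLR1D2 libraries lay above all others, whereas SCR replicate 4 fell within the range of siPOLR1D3. Over all silenced libraries the mean of 849 ± 263 (SD, n = 6) compared with 438 ± 110 (SD, n = 6) for SCR, which limma put at 0.93 on the log2 scale with SE 0.21 and an adjusted p of 0.0236. IRF1, a transcription factor of interferon and stress responses, had 540, 694 and 1183 in SCR, with 545, 552 and 290 for siPOLR1D2 and 313, 346 and 350 for siPOLR1D3. The siPOLR1D3 libraries and siPOLR1D2 replicate 3 lay below all SCR libraries, while siPOLR1D2 replicates 1 and 2 overlapped with them. The silenced mean was 399 ± 118 (SD, n = 6) and the SCR mean 770 ± 264 (SD, n = 6) (log2 fold change -0.93, SE 0.23, adjusted p = 0.0318 from limma). IFI35 had 31.01, 42.01 and 61.9 in SCR, with 25.1, 34.5 and 17.6 for siPOLR1D2 and 25.6, 17.3 and 17.1 for siPOLR1D3 (log2 fold change -0.96, SE 0.26, adjusted p = 0.0419 from limma). Here siPOLR1D2 replicate 2 was the only silenced library above the lowest SCR library. The call for IFI35 was lost with upper quartile rescaling (adjusted p = 0.058 from limma) and without a filter on low values (adjusted p = 0.0992 from limma).

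The next members by unadjusted p did not pass the threshold. STAT2 had 760, 856 and 1238 in SCR, 458, 649 and 358 with siPOLR1D2, and 860, 797 and 672 with siPOLR1D3 (log2 fold change -0.62, SE 0.21, adjusted p = 0.0977 from limma). PARP14 had 1054, 1687 and 3375 in SCR, 1540, 1227 and 967 with siPOLR1D2, and 1002, 961 and 1041 with siPOLR1D3 (log2 fold change -0.64, SE 0.22, adjusted p = 0.103). DDX60, an RNA helicase that works with RIG-I, had 22.0, 109 and 322 in SCR, 23.7, 36.4 and 32.2 with siPOLR1D2, and 45.0, 48.2 and 62.3 with siPOLR1D3 (log2 fold change -1.35, SE 0.50, adjusted p = 0.127). For STAT2 all siPOLR1D2 libraries lay below the SCR range and 2 of the 3 siPOLR1D3 libraries within it, and for DDX60 each silenced library lay within the SCR range. The calls rest on few libraries: without SCR replicate 6, or without siPOLR1D2 replicate 3, 0 members were called, and without SCR replicate 3 or any of the siPOLR1D3 replicates SAMD9 alone was called. Without siPOLR1D2 replicate 1 or SCR replicate 5, SAMD9 and IRF1 were called, without SCR replicate 2 SAMD9 and DDX60, and without SCR replicate 1 SAMD9, IRF1 and PARP14. The fits with 1 library left out called 3.28% to 8.08% of all genes.

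**Figure D4:**
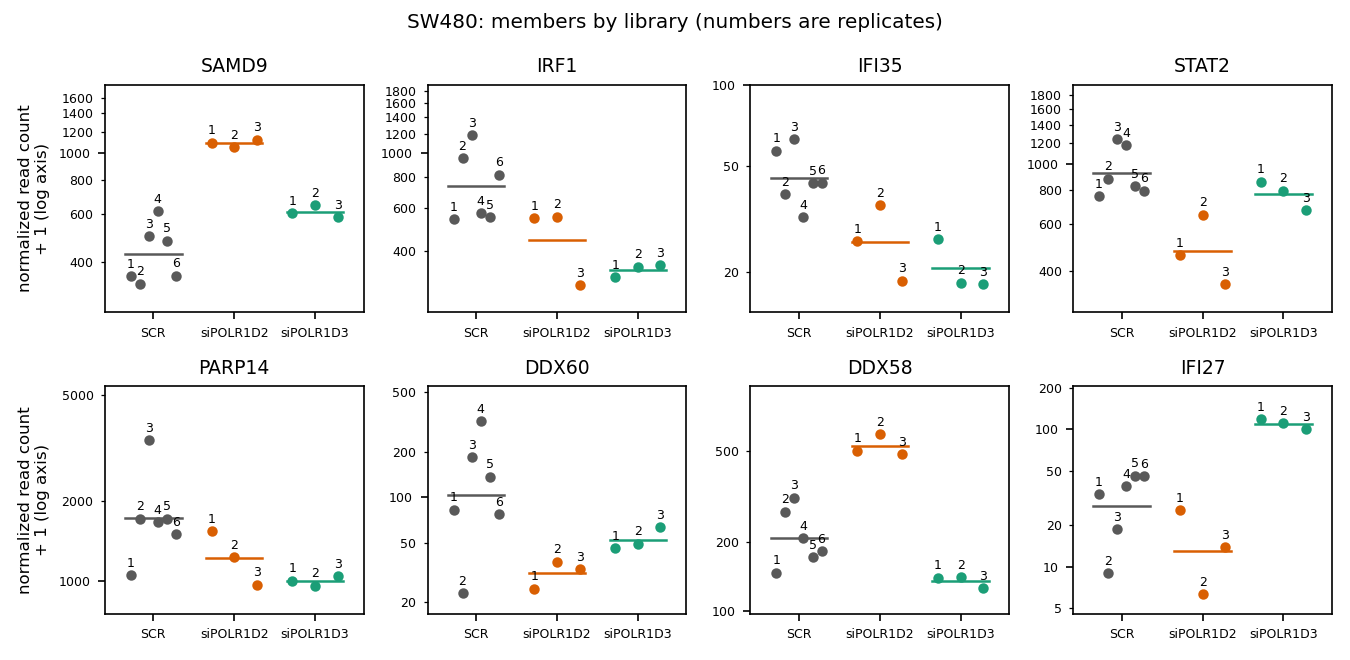
Normalized read count + 1 on a log axis in the SW480 libraries, in SCR (grey), siPOLR1D2 (orange) and siPOLR1D3 (green), with replicate numbers and a line at the mean of the log values. SAMD9 and DDX58 are highest in the 3 siPOLR1D2 libraries, IFI27 is highest in the 3 siPOLR1D3 libraries, and IRF1 and IFI35 are lower in most silenced libraries than in SCR.

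The siRNAs differed from each other for 2 members in SW480. On the first principal component siPOLR1D2 replicates 1 and 2 lay below 0 and all siPOLR1D3 libraries above 0. The siRNA and the component therefore cannot be fully told apart for either member. DDX58, which encodes the sensor RIG-I, had 146, 195 and 311 as the lowest, median and highest SCR value, 499, 589 and 483 with siPOLR1D2, and 139, 140 and 125 with siPOLR1D3. All siPOLR1D2 libraries lay above and all siPOLR1D3 libraries below the SCR range, and the log2 difference of siPOLR1D3 minus siPOLR1D2 was -1.95 (SE 0.25, adjusted p = 0.00458 from limma, against 1.54% of all genes lower). IFI27 had 8.02, 35.1 and 45.1 in SCR, 24.96, 5.30 and 12.8 with siPOLR1D2, and 118, 110 and 99.8 with siPOLR1D3. The siPOLR1D3 libraries lay above all others, with a log2 difference of 3.07 (SE 0.63, adjusted p = 0.0261 from limma, against 1.47% of all genes higher). SAMD9 missed the threshold, with -0.83 (SE 0.21, adjusted p = 0.0507). At an unadjusted p under 0.05, 7 members were higher with siPOLR1D3 (IFIT1, IFIT3, IFI27, STAT2, IFITM1, IFITM2 and IFITM3) and 2 lower (DDX58 and SAMD9), against 10.7% of all genes in either direction. Tested alone against SCR in a fit of its own, siPOLR1D2 called DDX58, SAMD9 and STAT2 (3.6% of all genes called), and siPOLR1D3 called IFI27, IFIT1 and IRF1 (5.81% of all genes called), with the SCR libraries shared by both fits. In HT29 limma called 0 members between the siRNAs (0% of all genes; at an unadjusted p under 0.05, 0 members and 1.56% of all genes), where siPOLR1D3 was above siPOLR1D2 for 43 of 45 and siPOLR1D2 replicate 1 was the low library.

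The IFITM genes and BST2 varied within the SW480 groups, in part along the first principal component, which was computed without the members. IFITM1 was at 127, 11.8 and 6.92 in SCR replicates 1 to 3 and 198, 296 and 253 in SCR replicates 4 to 6, with 16.97, 32.2 and 57.4 for siPOLR1D2 and 450, 303 and 393 for siPOLR1D3. IFITM3 was at 1282, 354 and 449 in the first 3 SCR replicates and 1408, 1949 and 1310 in the others, with 492.6, 588 and 724 for siPOLR1D2 and 2830, 1804 and 2066 for siPOLR1D3. SCR replicate 1 and siPOLR1D2 replicate 3 depart from the split, since the former was on its low side with an IFITM3 value near those of SCR replicates 4 to 6, and the latter on its high side with IFITM1 and IFITM3 values nearer to those of the other siPOLR1D2 libraries. BST2 went the other way, at 243 and 216 in SCR replicates 2 and 3 and 377 and 445 in siPOLR1D2 replicates 1 and 2, and between 32.6 and 116 in the other 8 libraries. These 4 libraries had the lowest scores on that component. As siPOLR1D2 replicates 1 and 2 lie on its low side and all siPOLR1D3 libraries on its high side, siRNA and split cannot be fully told apart for IFITM1, IFITM2, IFITM3 and BST2. The same holds for IFI27 and DDX58. IFI27 was at 32.6, 8.02 and 17.9 in SCR replicates 1 to 3 and 37.6, 45.1 and 44.8 in SCR replicates 4 to 6. DDX58 was at 146.5, 270.5 and 311.1 in the former and 207.9, 170.9 and 182.3 in the latter, with 482.7 in siPOLR1D2 replicate 3. With the component as a covariate, DDX60, GBP1, IFI35, IRF1 and SAMD9 were called for silencing in SW480, which is 13.9% of the members and compares with 14.4% of all genes called in that fit.

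Among the other genes of the pathway in SW480, 3 of 13 receptor and JAK-STAT genes fell and 0 rose, where 4.06% of all genes were called lower and 2.35% higher. IFNAR1, a chain of the type I receptor, was at 1202 to 1695 in SCR and 644 to 1279 in silenced cells (log2 fold change -0.60, SE 0.16, adjusted p = 0.0421 from limma). IFNGR2, a chain of the interferon gamma receptor, was at 2565 to 4069 in SCR and 1453 to 2213 in silenced cells (log2 fold change -0.60, SE 0.14, adjusted p = 0.0221). JAK1 was at 3015 to 4382 in SCR and 1904 to 2782 in silenced cells (log2 fold change -0.50, SE 0.11, adjusted p = 0.0214). IFNGR2 and JAK1 did not overlap between the groups, whereas IFNAR1 did. EIF2AK2 was at 1703 to 1966 in SCR and 1701 to 2463 in silenced cells (log2 fold change 0.13, adjusted p = 0.489). None of the 16 sensors and adaptors tested was called by limma, with 1 higher and 0 lower at an unadjusted p under 0.05 (10.3% and 12.4% of all genes). Of 12 NF-kB targets, BIRC3 (log2 fold change -1.22, adjusted p = 0.0361) and NFKB2 (-0.87, adjusted p = 0.0327) fell and 0 rose. Of the 10 ATF4 targets, 7 fell (ASNS, ATF3, DDIT3, PPP1R15A, PSAT1, SESN2 and TRIB3) and 0 rose. IFNE, the only interferon gene tested in SW480, was at 1.23 to 23.5 in SCR and 4.26 to 19.6 in silenced cells. KRT20, an epithelial marker, was higher in silenced SW480 cells (2.75, adjusted p = 0.00704), and its part in the results was not tested. The summed leukocyte markers were at 52.3 to 144 in SCR and 71.9 to 127 in silenced libraries, apart from siPOLR1D2 replicate 1 at 793, of which LYZ made up 777.

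The response to silencing was compared between the lines as an interaction over all 20 libraries. limma called 0 of the 36 members tested in both lines, against 0.0467% of 12848 genes. At an unadjusted p under 0.05, 4 members had a higher response in SW480 than in HT29 (IFIT1, ISG15, HERC5 and SAMD9, against 4.01% of all genes) and 0 a lower one (4.54%). The difference was 2.46 on the log2 scale for IFIT1 (SE 0.91, adjusted p = 0.418) and 1.29 for SAMD9 (SE 0.54, adjusted p = 0.508). This result, too, depended on the HT29 controls. Without SCR replicates 1 and 2 of HT29, 5 members differed, all with the higher response in SW480 (IFIT5, ISG15, OAS3, PARP9 and SAMD9, against 0.101% of all genes), and 0 in the other direction (0.0623%). The difference was then 2.40 for SAMD9 (SE 0.36, adjusted p = 0.00751 from limma) and 2.13 for ISG15 (SE 0.32, adjusted p = 0.00751 from limma). The HT29 part of the contrast here rests on SCR replicates 3 and 4, the high controls, and that choice was made with their spread known.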

How the data were processed

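RNA was captured as exome cDNA and sequenced in paired-end reads of 75 bases by the authors, who ran FastQC 0.11.5, quantified transcripts with kallisto 0.44.0 and normalized with DESeq2 1.24.0 on hg38, per the paper and the submitters' processing notes. The annotation is not given in the sources used here. The authors deposited signal values, namely normalized read counts per gene that are not whole numbers. They were scaled separately in HT29 and SW480, and depth in reads is unknown.

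Of 40117 rows, those sharing a symbol were summed to 36346 names. A separate limma fit (3.58.1, R 4.3.3) was made for the 8 HT29 and the 12 SW480 libraries, comparing silenced with SCR on log2(value + 1) with an empirical Bayes mean-variance trend. Genes at 10 or more in at least 4 libraries were kept, and p values were adjusted by Benjamini-Hochberg over all of them, with 0.05 as the threshold. The lines were compared by an interaction, the siRNAs by a contrast within a line, and POLR1D by an exact permutation test. In simulated data the HT29 fit over 13274 genes recovered 50.8% of log2 changes of 1 and 84.2% of 2, with 5.03% wrong calls. The SW480 fit over 15651 genes recovered 59.2% and 88.0%, with 4.07% wrong. Recovery for the members alone was not tested. Over the HT29 SCR libraries their median standard deviation of log2 values was 1.39, against 0.318 for all genes. On the deposited values the HT29 fit with all controls called 0 of 13274 genes.

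The members and lists were chosen with earlier results of these data known. Values by library (for the 6 SW480 SCR libraries, the lowest, median and highest) are given for members called in either line, or else the 6 with the smallest unadjusted p in that line, and for the 6 with the largest spread over the HT29 SCR libraries. Pathway genes are named where called, with EIF2AK2 and the interferons that passed the filter. A withheld item is not reported here. DDX58, IFI27, IFITM1, IFITM3, BST2, DDIT3 and others named beyond this were chosen after their values were seen. Alternatives were other pseudocounts, filters, scalings and limma settings, each siRNA alone, a replicate block, a principal component as covariate, and libraries left out.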

Additional observations from a re-analysis of the deposited data

Results flagged for a closer look

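In groups of 4 to 10 libraries, the gap of the highest or lowest library to its nearest neighbour was set against the range of the group, and 8 of the 64 groups tested for the named members passed Dixon's limit, where chance gives about 1 in 20. All 8 are the same library, siPOLR1D2 replicate 1 of HT29, which lay far below the other 3 silenced libraries. Its normalized read counts were 69.4 for IFIT2, 49.5 for IFIT3, 2740 for PARP14, 151 for DDX60, 7.17 for OAS2, 2.52 for IFI44L, 94.8 for MX1 and 4.45 for EPSTI1. Since the members move together, these are not 8 separate signs. Without this library the HT29 call count stayed at 0 of 45 members (limma, adjusted p under 0.05), and the estimate for IFITM1 turned from -1.03 to 0.36.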

How the results depend on the processing

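The HT29 fit was repeated under settings that bring the total to 23, and the SW480 fit likewise to 27. HT29 rests on its controls: leaving out SCR replicates 1 and 2 moved the median log2 fold change of the members from -0.78 to -2.05 and gave 5 members that differed between the lines, and leaving out replicates 3 and 4 moved it to 0.50. The replicate numbers were also used as a replicate block, although same-numbered libraries do not deviate together (r from -0.174 to 0.038 in HT29 and from -0.567 to 0.386 in SW480), and not every library correlated best with its own number. In HT29 the block draws on SCR replicates 1 and 2 for the contrast, since replicates 3 and 4 have no silenced partner. It gave the same estimates as leaving out replicates 3 and 4. The HT29 block called 2 members (4.44% of them) and 13 pathway genes, against 5.54% of all genes. POLR1D was at -0.80 and past the threshold, and the median of the members was 0.50. Directions were opposite to those in the text for IFIT5 (0.020), SAMD9 (0.75), PARP14 (0.55), IFITM1 (2.05), OAS2 (1.29), IFI44L (0.71), MX1 (1.78), RSAD2 (0.56) and EPSTI1 (0.78). In SW480 the block called 0 members and 0 pathway genes, with POLR1D at -1.17 and no longer past the threshold and IFIT5 at 0.071, and it called 0 members between the lines. The main SW480 fit called 6.41% of all genes. In SW480 array weights called 9 members (25% of them) and 20 pathway genes, against 19.5% of all genes, with MX1 at 0.043. The principal component as covariate called 5 members (13.9%, against 14.4% of all genes) with IFITM1 at -0.39. Upper quartile rescaling called 7 pathway genes (5.34% of all genes called) and, like the fit without a filter, lost IFI35. siPOLR1D2 alone called 4 pathway genes (3.6% of all genes called), with IFITM1 at -1.22. With siPOLR1D3 alone IFITM1 was at 0.65 in HT29, and IFIT2 (0.071), IFIT3 (0.11) and MX1 (0.13) were above 0 in SW480. The cause of these changes was not tested.

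With single libraries left out, 0 members and 0 pathway genes were called throughout in HT29, with a median from -1.32 to -0.28. SAMD9 then ranged from -0.76 to 0.13, IFITM1 from -2.42 to 0.36 and MX1 from -1.58 to 0.40 in HT29. In SW480 0 to 3 members and 5 to 14 pathway genes were called, against 3.28% to 8.08% of all genes. IFITM1 ranged from -0.11 to 1.07 and MX1 from -0.23 to 0.023 there. The reads behind a value are unknown, so how far depth limits the low members could not be stated.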

Other observations

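Among the 36 members with a promoter window and a test in HT29, the ratio of SCR replicate 4 to SCR replicate 2 had a median of 13.1 (2.37 to 470) in the 16 with the ISRE core followed by CT and 8.26 (1.25 to 142) in the 20 without it. With the shorter core the medians were 9.92 in 26 members and 8.91 in 10. For the GAS core they were 7.07 in 12 members with it and 11.02 in 24 without it. The ranges overlap widely, and the members share their libraries, so no test was made.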
